A study of Homo sapiens with 12 samples.

Results

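Interferon-stimulated genes are the genes that cells switch on when interferon, or foreign RNA or DNA, is sensed. The 44 members described here are a list of such genes given by symbol, and each was matched to 1 of the 60617 Ensembl gene identifiers in the deposited tables. Of the 44, 41 passed the filter on low counts and were tested among 21581 genes. RSAD2, IFITM1 and BST2 did not pass.

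Type I and type III interferons bind receptors whose JAK kinases phosphorylate STAT proteins. STAT2 then joins IRF9 and a partner STAT in the complex ISGF3, which binds the interferon-stimulated response element (ISRE) in the promoters of these genes. Type II interferon acts instead through a STAT dimer that binds the gamma-activated site (GAS), with IRF1 among its best known targets. Double-stranded RNA can be detected by RNA sensors such as EIF2AK2 and, for long molecules, IFIH1. Transfected siRNA can also set off an interferon response, and some siRNA sequences are known to do so more than others.

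The RNA came from A549 cells, an established human lung adenocarcinoma line, in 3 groups of 4 libraries that the series calls biological replicates. One group received a control siRNA (siCo), and the other groups received either of 2 siRNA combinations against YAP and TAZ, siYAP/TAZ#1 and siYAP/TAZ#2. YAP and TAZ are the transcriptional coactivators held back by the Hippo kinases. All 12 cultures were transfected and harvested 24 hours later, so that a response to transfection shared by the 3 groups cannot be told apart from the resting level of the line. The question for these genes was whether each combination differed from siCo, and whether the combinations, which share their targets, differed from each other.

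Levels below are CPM (counts scaled to 1e6 per library, after TMM scaling), as mean ± SD over n = 4 libraries, listed by replicate number, which is only a name. Changes are log2 values ± standard error, and the adjusted p is from edgeR's quasi-likelihood test over all 21581 genes. Intervals are nominal 95% intervals, the log2 change ± a normal quantile times its standard error. They are somewhat narrower than that test implies. An interval can therefore leave out 0 where the unadjusted p is above 0.05, as for IFI6 between the combinations (-0.64 to -0.02, unadjusted p = 0.0509 in the quasi-likelihood test). A gene was called at an adjusted p under 0.05. Each library held 29.6 to 38.3 (times 1e6) estimated counts, and a count of 10 stood for 0.25 to 0.375 CPM. The members together took 0.0724 to 0.0808% of counts in siCo, 0.0894 to 0.104% in siYAP/TAZ#1 libraries and 0.0844 to 0.104% with siYAP/TAZ#2. YAP1 fell from 121 ± 4.03 CPM to 18.7 ± 1.43 CPM in siYAP/TAZ#1 cells and 17.4 ± 1.19 CPM in siYAP/TAZ#2 cells, and WWTR1, the gene of TAZ, fell from 241 ± 9.71 to 32.9 ± 1.14 and 32.4 ± 2.38 CPM. Between the combinations, the interval of the difference was -0.24 to 0.03 for YAP1 and -0.14 to 0.10 for WWTR1. Of 4 epithelial markers, all were present, with a summed TPM of 1030 to 1530 in siCo and 1440 to 2220 in the treated libraries. Of 4 A549-typical and alveolar genes, ALDH1A1 and AKR1B10 stood at 502 ± 97.3 and 535 ± 94.9 TPM in siCo, and SFTPB at 0.0519 ± 0.0237 TPM. The alveolar factor NKX2-1 was listed at 0 in every siCo library, with summed estimated counts of 2 and 4 with siYAP/TAZ#1 and siYAP/TAZ#2. Summed markers of plasmacytoid dendritic cells, which make much of the body's type I interferon, stayed at 0.328 TPM or less in all libraries. Leukocyte markers summed to 11.6 to 15.6 TPM in siCo, 12 to 23.1 in siYAP/TAZ#1 libraries and 13.3 to 23.7 with siYAP/TAZ#2. Nearly all of this was CD68. Fibroblast markers summed to 16.3 to 26.3, 31.3 to 44 and 23.1 to 37.6 TPM in the same groups. Nearly all of that was COL1A1, with COL3A1 and PDGFRB near 0. After TMM scaling of counts, the log2 changes with siYAP/TAZ#1 and siYAP/TAZ#2 were -0.22 and -0.05 for CD68 and 0.07 and 0.08 for KRT8, none called. COL1A1 was called higher with siYAP/TAZ#1 (0.47) and not called with siYAP/TAZ#2 (0.09). KRT18 was called lower with siYAP/TAZ#2 (-0.25), and EPCAM (0.52 and 0.47) and CDH1 (1.07 and 0.57) were called higher with both. The part of these markers in the results was not tested, and in bulk RNA fewer cells of a type cannot be told apart from less RNA per cell.

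Promoter windows of RefSeq (GRCh38.p14), from 250 bases before to 50 after a start site, were at hand for 36 of the 44 members. The core letters of the ISRE, GAAA, any 2 bases and GAAA again, on either strand, stood in the windows of 23 of these 36 (63.9%), against 4.38% of all 27305 genes with a window (3.57% of 35116 single windows). The letters of the GAS, TTCNNNGAA on either strand, stood in 10 of 36 (27.8%), against 9.38% of all genes and 7.66% of single windows. The stretches below hold the matched letters in capitals for members chosen by hand, so they do not stand for the rest. Of the members called between the combinations, only IFIT1 and IRF1 are shown. TRIM21, which has the ISRE letters, is not shown, nor are uncalled members with those letters such as EIF2AK2 and IFIT5. ISG15, IFIT1, IFIT3, IFIH1, PARP9 and ISG20 were called higher in each comparison with siCo, OAS3 carries the letters and was not called, and the IRF9 and IRF1 stretches hold the GAS letters. Each runs 5′ to 3′ on the strand of its gene, upstream of the start site.
ISG15: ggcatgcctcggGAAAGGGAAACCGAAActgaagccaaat
IFIT1: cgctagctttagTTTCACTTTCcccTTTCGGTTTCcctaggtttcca
IFIT3: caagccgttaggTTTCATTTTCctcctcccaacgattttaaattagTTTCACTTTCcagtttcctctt
IFIH1: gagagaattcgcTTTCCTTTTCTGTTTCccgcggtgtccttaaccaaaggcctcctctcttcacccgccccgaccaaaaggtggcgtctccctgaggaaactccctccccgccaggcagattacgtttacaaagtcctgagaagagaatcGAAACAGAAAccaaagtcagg
PARP9: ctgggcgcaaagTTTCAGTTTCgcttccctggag
ISG20: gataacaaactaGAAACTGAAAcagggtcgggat
OAS3: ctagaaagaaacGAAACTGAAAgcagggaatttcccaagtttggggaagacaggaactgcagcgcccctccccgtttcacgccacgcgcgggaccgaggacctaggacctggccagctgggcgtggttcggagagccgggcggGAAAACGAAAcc
IRF9: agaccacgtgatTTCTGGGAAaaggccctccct
IRF1: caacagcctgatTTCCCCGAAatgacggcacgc

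In genome coordinates the ISG15 stretch is chr1:1013372-1013411 (plus strand), IFIT1 chr10:89392495-89392541 (plus) and IFIT3 chr10:89327829-89327896 (plus). The IFIH1 stretch is chr2:162318685-162318855 (minus), PARP9 chr3:122564320-122564353 (minus) and ISG20 chr15:88638935-88638968 (plus). OAS3 lies at chr12:112938319-112938473 (plus), IRF9 at chr14:24161190-24161222 (plus) and IRF1 at chr5:132490877-132490909 (minus). The 2 matched ISRE runs of ISG15 overlap each other. The PARP9 stretch also lies inside the window of DTX3L, which starts next to it on the other strand. STAT2, IRF9, IRF1, OAS1, TRIM25, CMPK2, HERC6, IFI35, SAMD9L, SP100, SP110, UBE2L6 and XAF1 had none of the ISRE letters in their windows. Among members with the letters, 13 of 20 tested were called higher with siYAP/TAZ#1, 13 with siYAP/TAZ#2 and 2 were called between the combinations. Among members without them, the counts were 7, 9 and 3 of 13. Of all genes tested, 16.4% and 19% were called higher with siYAP/TAZ#1 and siYAP/TAZ#2, and 15.1% were called between the combinations.

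Most of these genes stood higher with either combination than in siCo. With siYAP/TAZ#1, 25 of the 41 tested members were called higher and 2 lower, where 16.4% of all genes were called higher and 18.5% lower (34.9% in either direction). With siYAP/TAZ#2, 27 were higher and 2 lower, against 19% and 19.2% of all genes (38.2% in either direction). The called rises ran from 0.23 (USP18) to 2.00 (IFIT1) with siYAP/TAZ#1 and from 0.24 (USP18) to 1.35 (IFIH1) with siYAP/TAZ#2. STAT2 and TRIM25 were the lower genes with siYAP/TAZ#1, and IRF1 and TRIM25 with siYAP/TAZ#2. The median change of the 41 members was 0.59 and 0.64 with siYAP/TAZ#1 and siYAP/TAZ#2, where the median of all genes tested was 0.02 in both. In 24 members every siYAP/TAZ#1 library was above every siCo library, and in 2 every one was below (18% and 20.7% of all genes). For siYAP/TAZ#2 these counts were 23 and 2 (17% and 17.7%). Both comparisons use the same 4 siCo libraries, so they are not independent of each other.

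Taken by library, the median distance of the 41 members from their siCo mean was -0.06 to 0.02 in the siCo libraries, 0.41 to 0.55 in siYAP/TAZ#1 libraries and 0.40 to 0.68 with siYAP/TAZ#2. Within that group, replicate 1 had the lowest of the last 4 values and only 32 members above their siCo mean, against 35 to 38 in the other 3 libraries of its group. With a minimum log2 change of 0.5 added to the threshold, 19 members were higher and 0 lower with siYAP/TAZ#1 (10.2% and 6.68% of all genes), and 21 were higher and 1 lower with siYAP/TAZ#2 (12.1% and 7.67%). Without replicate 1 of siYAP/TAZ#2, 28 members were higher and 2 lower with siYAP/TAZ#2, while the share of all genes called rose to 42.9% (20.8% higher).

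**Figure D1:**
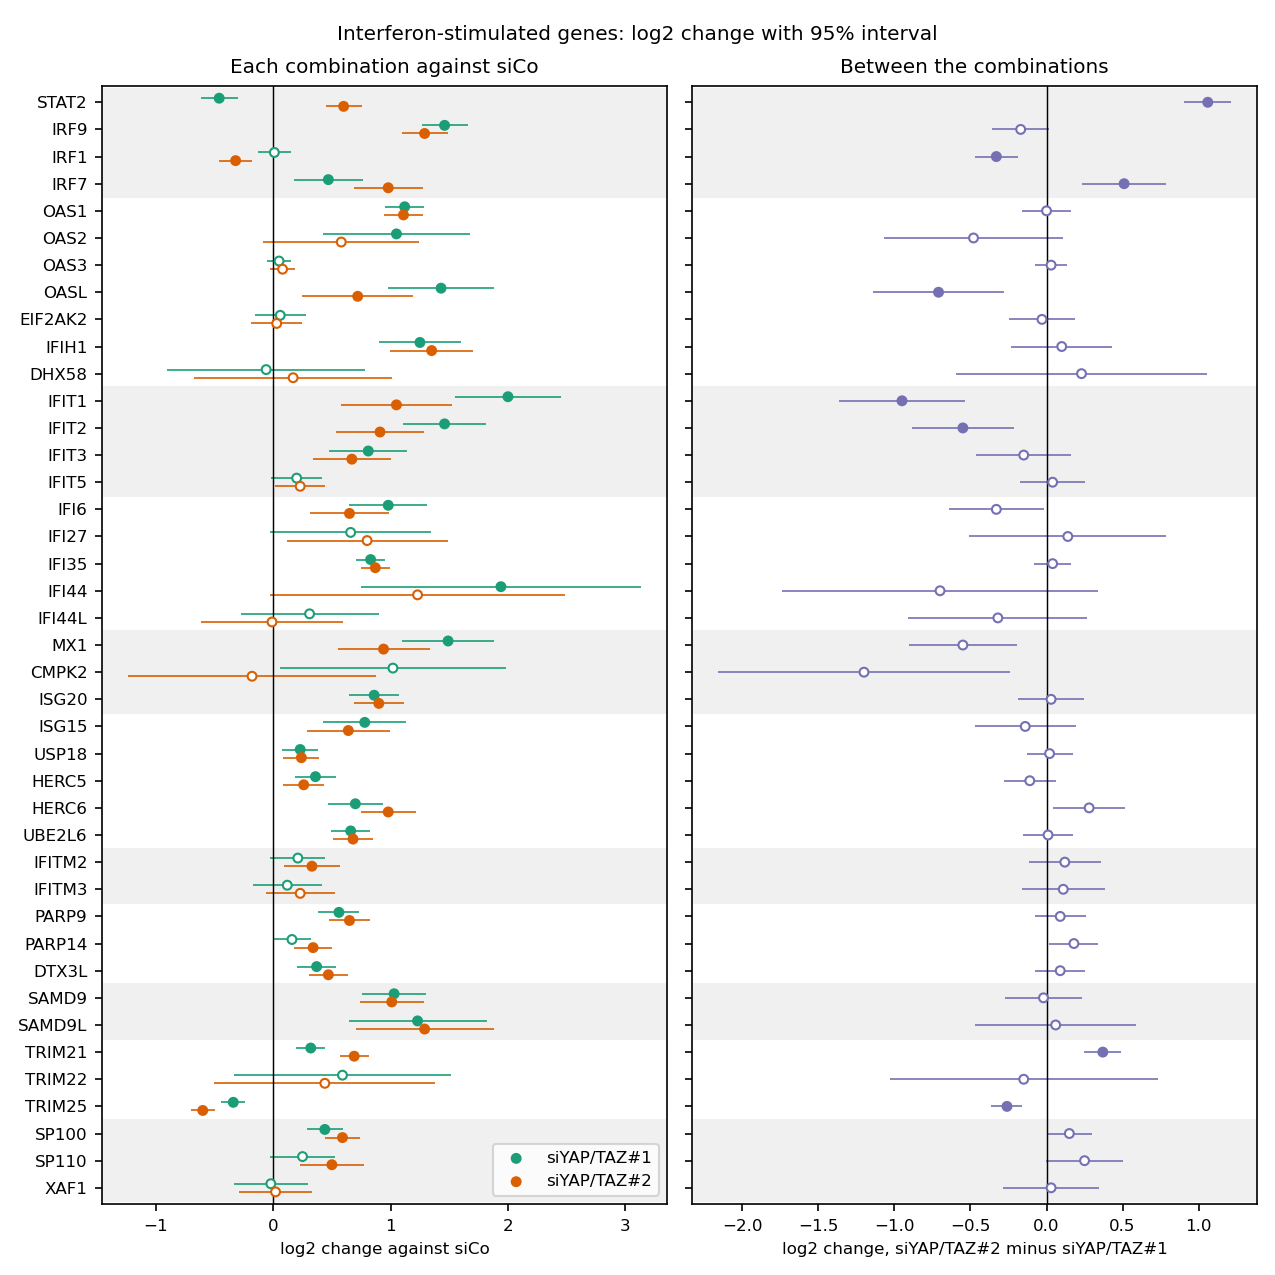
Log2 change of each of the 41 tested members with its nominal 95% interval from a normal quantile. Changes against siCo are on the left (green siYAP/TAZ#1, orange siYAP/TAZ#2), and siYAP/TAZ#2 minus siYAP/TAZ#1 is on the right. Filled points were called at an adjusted p under 0.05, and bands of shading separate the role groups. Most points on the left lie to the right of 0, while those on the right side scatter around 0 with STAT2 at 1.06 and IFIT1 at -0.95 at the ends of the called range.

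The transcription factors of the response did not move as a group. STAT2 and IRF9 are subunits of ISGF3, IRF7 drives interferon genes once activated, and IRF1 is a broad activator of antiviral genes. STAT2 (ENSG00000170581, chromosome 12, 56341597 to 56360155, minus strand, GRCh38) stood at 26.4, 27.2, 25.3 and 27.5 CPM in the siCo libraries, at 19.3, 17.9, 18.3 and 21.7 with siYAP/TAZ#1 and at 36.7, 39.3, 39.1 and 45.7 with siYAP/TAZ#2. No library of one group overlapped another, with siYAP/TAZ#1 below and siYAP/TAZ#2 above siCo. STAT2 fell by 0.46 ± 0.08 with siYAP/TAZ#1 (adjusted p = 0.000253) and rose by 0.60 ± 0.078 with siYAP/TAZ#2 (adjusted p = 1.53e-05). On TPM the fall did not hold: the siYAP/TAZ#1 change was 0.27 with limma on log2(TPM + 1) (adjusted p = 0.535), and -0.04 after TMM scaling of TPM (adjusted p = 0.832).

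IRF9 (chromosome 14, 24161053 to 24166565, plus strand), whose exons overlap those of another gene model on its strand, rose in every treated library. It stood at 7.25, 7.7, 6.15 and 7.31 CPM in siCo, at 21.4, 16.8, 18.8 and 21.6 with siYAP/TAZ#1 and at 16.9, 19.6, 15.8 and 17.6 with siYAP/TAZ#2. The lowest treated library was above every siCo library by more than the spread within any group. IRF9 rose by 1.46 ± 0.10 (adjusted p = 1.81e-08) and 1.29 ± 0.10 (adjusted p = 6.05e-08), and the difference between the combinations had an interval of -0.36 to 0.02.

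IRF7 (chromosome 11, 612553 to 615999, minus strand) read 6, 5.05, 8.03 and 6.49 CPM in siCo, 9.4, 9.3, 7.65 and 9 with siYAP/TAZ#1 and 16.2, 10.3, 12.8 and 11 with siYAP/TAZ#2. The groups stood in steps, with 1 siYAP/TAZ#1 library inside the siCo range and all siYAP/TAZ#2 libraries above both. IRF7 rose by 0.47 ± 0.15 with siYAP/TAZ#1 (adjusted p = 0.0224) and by 0.98 ± 0.15 with siYAP/TAZ#2 (adjusted p = 6.6e-05). The siYAP/TAZ#1 call was lost without siCo replicate 1 (0.44, adjusted p = 0.0636) or 2 (0.37, adjusted p = 0.0829) and without siYAP/TAZ#1 replicate 1 (0.44, adjusted p = 0.0609) or 2 (0.44, adjusted p = 0.056).

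IRF1 (chromosome 5, 132481609 to 132490798, minus strand) was flat with one combination and lower with the other. It measured 23.9, 24.4, 24.8 and 24.6 CPM in siCo, 24.3, 25.2, 23.5 and 25.6 with siYAP/TAZ#1 and 22.3, 17.7, 18.3 and 19.9 with siYAP/TAZ#2. All siYAP/TAZ#2 libraries lay below all others. The change was 0.01 with siYAP/TAZ#1 (adjusted p = 0.927), with an interval of -0.13 to 0.15, and IRF1 fell by 0.32 ± 0.073 with siYAP/TAZ#2 (adjusted p = 0.00218). On log2(TPM + 1) the siYAP/TAZ#2 value was 0.08 (adjusted p = 0.81, limma), and with library size alone as the scale it was -0.14 (adjusted p = 0.125).

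Among 7 double-stranded RNA sensors and OAS enzymes, 4 rose with siYAP/TAZ#1 and 3 with siYAP/TAZ#2. Of all genes, 16.4% and 19% were called higher, shares that also belong beside the counts of the role groups that follow. OAS proteins make the 2-5A signal that activates RNase L, IFIH1 (MDA5) senses long double-stranded RNA, DHX58 modulates that sensing and EIF2AK2 (PKR) is a kinase that shuts down translation. OAS1 measured 8.78, 8.5, 8.25 and 9.93 CPM in siCo, 21, 19.5, 17.2 and 19.4 with siYAP/TAZ#1 and 17.7, 18.4, 20.2 and 20.6 with siYAP/TAZ#2. Its treated libraries were all well above siCo and mixed with each other. OAS1 rose by 1.12 ± 0.086 (adjusted p = 5.52e-08) and 1.11 ± 0.086 (adjusted p = 4.69e-08). Between the combinations its interval was -0.16 to 0.16.

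OASL, an OAS relative without the enzyme activity, read 0.857, 0.924, 0.863 and 1.02 CPM in siCo, 2.42, 3.38, 1.67 and 2.47 with siYAP/TAZ#1 and 1.14, 1.25, 1.77 and 1.91 with siYAP/TAZ#2. Both treated groups lay above siCo and overlapped each other. It rose by 1.43 ± 0.23 (adjusted p = 0.000143) and 0.72 ± 0.24 (adjusted p = 0.0252). The siYAP/TAZ#2 call was lost without siCo replicate 1 (0.69, adjusted p = 0.0601) or 3 (0.70, adjusted p = 0.0551) and without siYAP/TAZ#2 replicate 3 (0.64, adjusted p = 0.0755) or 4 (0.60, adjusted p = 0.0851).

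IFIH1 was near 1 CPM in siCo (1.04, 1.29, 1.28 and 1.31 CPM) and higher in all treated libraries, at 2.88, 3.32, 3.15 and 2.39 with siYAP/TAZ#1 and at 3.85, 2.42, 3.65 and 2.66 with siYAP/TAZ#2. It rose by 1.25 ± 0.18 and 1.35 ± 0.18. The abundant members of this group were not called: OAS3 stood at 206 ± 4.6, 214 ± 12.2 and 218 ± 4.43 CPM and EIF2AK2 at 95.4 ± 7.72, 99.4 ± 6.82 and 97.1 ± 17.5 CPM (siCo first, then siYAP/TAZ#1, then siYAP/TAZ#2). Their intervals against siCo lay within -0.05 to 0.19 for OAS3 and within -0.19 to 0.27 for EIF2AK2. With library size alone as the scale, where the median of all genes moved to 0.20 and 0.21, OAS3 was called at 0.23 and 0.27. OAS2 rose by 1.05 ± 0.32 with siYAP/TAZ#1 (adjusted p = 0.0171), a call lost without siCo replicate 2 (0.93) or 4 (0.95) or without siYAP/TAZ#1 replicate 4 (0.84). Its siYAP/TAZ#2 value was 0.58 (interval -0.08 to 1.23), and DHX58, under 1 CPM, had values of -0.06 and 0.17.

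Of the 4 IFIT genes, whose proteins bind viral RNA, 3 rose with each combination. IFIT1 (chromosome 10, 89392546 to 89406486, plus strand), which recognises RNA without the host's cap methylation, read 0.826, 0.739, 0.675 and 0.854 CPM in siCo. It reached 3.14, 2.87, 2 and 4.47 with siYAP/TAZ#1 and 1.45, 1.76, 1.58 and 1.66 with siYAP/TAZ#2. The 3 groups did not overlap, and siYAP/TAZ#1 was the highest. IFIT1 rose by 2.00 ± 0.23 (adjusted p = 3.62e-06) and 1.05 ± 0.24 (adjusted p = 0.00193).

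IFIT2 (chromosome 10, 89283694 to 89309276, plus strand) read 1.01, 0.986, 0.975 and 1.11 CPM in siCo, 3.43, 2.82, 2.22 and 2.81 with siYAP/TAZ#1 and 1.93, 1.55, 2.42 and 1.78 with siYAP/TAZ#2. The siYAP/TAZ#2 libraries were above siCo, and 1 of them lay within the siYAP/TAZ#1 range. It rose by 1.46 ± 0.18 and 0.91 ± 0.19, and its exons overlap those of LIPA on the other strand. IFIT3 rose by 0.81 ± 0.17 and 0.67 ± 0.17. IFIT5 had values of 0.20 and 0.23 that were not called, and was called with siYAP/TAZ#1 (0.19, adjusted p = 0.0457) and with siYAP/TAZ#2 (0.34, adjusted p = 0.00173) when siYAP/TAZ#2 replicate 1 was left out.

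Among 5 genes named for interferon induction, 3 rose with siYAP/TAZ#1 and 2 with siYAP/TAZ#2. IFI35, which interacts with NMI, measured 14.3, 14.2, 15.8 and 14.5 CPM in siCo, 25.8, 27.2, 24.4 and 26.8 with siYAP/TAZ#1 and 27.8, 26.4, 26.5 and 26.5 with siYAP/TAZ#2. All treated libraries stood far above siCo in a narrow band. It rose by 0.83 ± 0.064 (adjusted p = 5.43e-08) and 0.87 ± 0.064 (adjusted p = 2.6e-08). The mitochondrial survival protein gene IFI6 went from 1.84, 2.13, 2.63 and 1.93 CPM in siCo to 4.38, 3.52, 3.75 and 5.14 in siYAP/TAZ#1 libraries and to 3.6, 2.65, 3.2 and 3.88 with siYAP/TAZ#2. Every treated library was above every siCo library, the lowest by little. IFI6 rose by 0.98 ± 0.17 and 0.65 ± 0.17, with a difference between the combinations of -0.33 (interval -0.64 to -0.02, adjusted p = 0.197).

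The other 3 of these genes were near the floor of the assay. IFI44 rose by 1.94 ± 0.61 with siYAP/TAZ#1 from 0.142 ± 0.111 to 0.535 ± 0.279 CPM, and the call was lost without siYAP/TAZ#1 replicate 1 (1.51, adjusted p = 0.084), the highest library. Its siYAP/TAZ#2 value was 1.23 (interval -0.03 to 2.50). IFI27, at 0.41 ± 0.245 CPM in siCo, had values of 0.66 and 0.80 that were called only without siCo replicate 1 (1.16 and 1.30, adjusted p = 0.0125 and 0.00526) among the left-out libraries. IFI44L had values of 0.31 and -0.01.

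Of the antiviral effector genes, MX1 and ISG20 rose with both combinations. MX1, a dynamin-like GTPase that traps viral components, read 1.71, 1.69, 1.2 and 1.45 CPM in siCo, 4.67, 3.97, 3.47 and 5.06 with siYAP/TAZ#1 and 1.86, 3.16, 3.14 and 3.51 with siYAP/TAZ#2. The siYAP/TAZ#2 libraries lay mostly between the other groups, with replicate 1 close to siCo. MX1 rose by 1.49 ± 0.20 (adjusted p = 1.73e-05) and 0.94 ± 0.20 (adjusted p = 0.00133). Both calls were lost with limma on log2(TPM + 1) (0.56 and 0.60, adjusted p = 0.214 and 0.138) and after TMM scaling of TPM (0.35 and 0.32, adjusted p = 0.223 and 0.264). ISG20, an RNA exonuclease, went from 6.7, 7.27, 7.69 and 6.57 CPM to 12.9, 13.6, 12.9 and 11.9 in siYAP/TAZ#1 libraries and to 16.8, 11.7, 12 and 12.1 with siYAP/TAZ#2. All treated libraries were above siCo, with siYAP/TAZ#2 replicate 1 highest. ISG20 rose by 0.86 ± 0.11 and 0.90 ± 0.11.

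CMPK2, a mitochondrial nucleotide kinase gene, had values of 1.02 (interval 0.06 to 1.98, adjusted p = 0.119) and -0.18 (-1.25 to 0.89) at levels under 1 CPM. Its neighbour RSAD2 (viperin) was not tested, with summed estimated counts of 11.1, 23.3 and 20.2 in siCo, siYAP/TAZ#1 and siYAP/TAZ#2. Its 4 siYAP/TAZ#1 libraries (0.141 to 0.2 CPM) were above all siCo libraries (0.0285 to 0.123 CPM), at fewer than 10 estimated counts in each library.

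All 5 genes of ISG15 and its conjugation rose with both combinations. ISG15 is a ubiquitin-like protein, UBE2L6 its conjugating enzyme, HERC5 its main ligase, HERC6 a relative of HERC5, and USP18 removes ISG15 and restrains interferon receptor signalling. ISG15 measured 2.69, 4.13, 4.28 and 2.99 CPM in siCo, 6.52, 6.08, 5.4 and 6.02 with siYAP/TAZ#1 and 7.58, 4.68, 4.89 and 4.73 with siYAP/TAZ#2. No treated library fell within the siCo range, and siYAP/TAZ#2 replicate 1 was the highest of its group. ISG15 rose by 0.78 ± 0.18 (adjusted p = 0.00231) and 0.64 ± 0.18 (adjusted p = 0.00867).

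UBE2L6 stood at 14, 15, 15.7 and 14 CPM in siCo, 20.9, 24.9, 21.4 and 25.5 with siYAP/TAZ#1 and 25.1, 21.3, 22.3 and 25 with siYAP/TAZ#2. The treated groups covered the same range, above siCo. It rose by 0.66 ± 0.085 and 0.68 ± 0.085, and the interval between the combinations was -0.15 to 0.18. HERC6 rose by 0.70 ± 0.12 and 0.98 ± 0.12, from 4.93, 5.39, 5.06 and 6.32 CPM in siCo to 8.13, 8.82, 8.05 and 10.3 and to 8.78, 10.7, 12.5 and 11 CPM. HERC5 rose by 0.36 ± 0.089 and 0.26 ± 0.09, and USP18 by 0.23 ± 0.078 and 0.24 ± 0.078.

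The smallest of these rises depended on single libraries. The HERC5 call with siYAP/TAZ#2 was lost without siCo replicate 1, 2 or 3 or siYAP/TAZ#2 replicate 2, 3 or 4 (0.21, 0.26, 0.24, 0.27, 0.23 and 0.24). The USP18 call with siYAP/TAZ#1 was lost without replicate 1, 2 or 3 of siCo (0.20, 0.21 and 0.24) or of siYAP/TAZ#1 (0.19, 0.23 and 0.23). With siYAP/TAZ#2 it was lost without siCo replicate 1 (0.22) or siYAP/TAZ#2 replicate 3 (0.23) or 4 (0.21). USP18 has a near-identical copy, USP41, so that its counts are uncertain.

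The membrane restriction factors showed little. IFITM proteins block the fusion of viruses with cell membranes, and BST2 (tetherin) holds budding particles. IFITM2 read 7.28, 8.69, 6.23 and 6.91 CPM in siCo, 9.08, 8.39, 7.67 and 8.63 with siYAP/TAZ#1 and 8.27, 7.84, 9.48 and 11 with siYAP/TAZ#2. The 3 groups overlapped. It rose by 0.33 ± 0.12 with siYAP/TAZ#2 (adjusted p = 0.0411), while its siYAP/TAZ#1 value was 0.21 (adjusted p = 0.199). The siYAP/TAZ#2 call was lost without siCo replicate 1, 3 or 4 (0.33, 0.27 and 0.31), siYAP/TAZ#1 replicate 4 (0.33) or siYAP/TAZ#2 replicate 3 or 4 (0.31 and 0.23). The close sequence of the IFITM paralogs makes their split counts uncertain. IFITM3 had values of 0.12 and 0.23. IFITM1 and BST2 were not tested, with at most 9 and 7 estimated counts in a library.

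PARP9 and its partner ligase DTX3L, which act together in DNA repair and interferon signalling, rose with both combinations. PARP9 stood at 10.6, 10.4, 10.9 and 10.7 CPM in siCo, 16.5, 14, 15.3 and 17 with siYAP/TAZ#1 and 14, 17.5, 17.2 and 17.8 with siYAP/TAZ#2. All treated libraries were higher than siCo, which varied little. PARP9 rose by 0.56 ± 0.089 (adjusted p = 0.000106) and 0.65 ± 0.089 (adjusted p = 2.28e-05), and DTX3L by 0.37 ± 0.084 and 0.47 ± 0.084. Exons of PARP9 and DTX3L overlap on opposite strands, so reads there cannot be told apart without strand.

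PARP14, a mono-ADP-ribosyltransferase and the most abundant of the 3 in CPM, read 59.2, 60.2, 58.2 and 68.3 in siCo, 66.6, 64.4, 66.9 and 76.7 with siYAP/TAZ#1 and 65.6, 79.1, 83.6 and 82.2 with siYAP/TAZ#2. The siCo range took in 3 of the siYAP/TAZ#1 libraries and 1 of the siYAP/TAZ#2 libraries. It rose by 0.34 ± 0.082 with siYAP/TAZ#2 (adjusted p = 0.00383), with a siYAP/TAZ#1 value of 0.16 (adjusted p = 0.155). Without siYAP/TAZ#2 replicate 1 the siYAP/TAZ#1 value of 0.16 was called (adjusted p = 0.0475).

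SAMD9 and SAMD9L, neighbouring genes whose proteins curb translation and growth, rose together in size. SAMD9 measured 6.58, 6.53, 7.13 and 7.34 CPM in siCo, 14.9, 13, 12 and 16.4 with siYAP/TAZ#1 and 9.79, 15.4, 15.4 and 14.7 with siYAP/TAZ#2. Replicate 1 of siYAP/TAZ#2 was the lowest treated library and still above siCo. SAMD9 rose by 1.03 ± 0.14 (adjusted p = 2.05e-05) and 1.01 ± 0.14 (adjusted p = 2.34e-05). SAMD9L went from 0.918, 1.14, 0.525 and 0.882 CPM to 2.02, 1.75, 1.87 and 2.61 in siYAP/TAZ#1 libraries and to 0.979, 2.09, 2.98 and 2.5 with siYAP/TAZ#2. Here siYAP/TAZ#2 replicate 1 fell within the siCo range. SAMD9L rose by 1.23 ± 0.30 (adjusted p = 0.00387) and 1.29 ± 0.30 (adjusted p = 0.00252).

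The TRIM ligases split. TRIM21 (chromosome 11, 4384897 to 4393696, minus strand), a cytosolic antibody receptor and E3 ligase, read 15.3, 15.8, 16 and 14.6 CPM in siCo, 19.5, 19.5, 18.4 and 19.5 with siYAP/TAZ#1 and 23.4, 25.9, 25.5 and 24.7 with siYAP/TAZ#2. The groups formed 3 separate steps. TRIM21 rose by 0.32 ± 0.063 (adjusted p = 0.000834) and 0.69 ± 0.063 (adjusted p = 3e-07).

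TRIM25 (chromosome 17, 56836387 to 56914080, minus strand), an E3 ligase of RNA sensing, fell in every treated library. It stood at 219, 205, 210 and 208 CPM in siCo, 168, 163, 164 and 171 with siYAP/TAZ#1 and 147, 133, 134 and 140 with siYAP/TAZ#2. The steps ran downward, again without overlap. TRIM25 fell by 0.34 ± 0.052 with siYAP/TAZ#1 (adjusted p = 8.37e-05) and by 0.60 ± 0.052 with siYAP/TAZ#2 (adjusted p = 1.61e-07). On log2(TPM + 1) with limma the values were 0.06 (adjusted p = 0.872) and -0.03 (adjusted p = 0.94), so the fall did not hold on TPM as deposited. Its exons overlap those of DGKE on the other strand. TRIM22, at 0.244 ± 0.168 CPM in siCo, had values of 0.59 and 0.44 that were not called.

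The nuclear body genes SP100 and SP110 were called in 1 and 2 cases with siYAP/TAZ#1 and siYAP/TAZ#2. SP100, a constituent of PML bodies, read 13.2, 14, 12.6 and 14.3 CPM in siCo, 17.6, 17, 19.1 and 19.7 with siYAP/TAZ#1 and 18.5, 21.9, 19.9 and 21 with siYAP/TAZ#2. The treated groups overlapped each other above siCo. SP100 rose by 0.44 ± 0.077 (adjusted p = 0.000311) and 0.59 ± 0.077 (adjusted p = 1.56e-05). SP110 rose by 0.50 ± 0.14 with siYAP/TAZ#2, with a siYAP/TAZ#1 value of 0.25 (interval -0.02 to 0.52). The apoptosis factor gene XAF1 had values of -0.02 and 0.02.

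The direct contrast of the combinations, in which the siCo libraries cancel, called 8 of the 41 members (19.5%), where 15.1% of all genes were called. STAT2, IRF7 and TRIM21 were higher with siYAP/TAZ#2, and IRF1, OASL, IFIT1, IFIT2 and TRIM25 were higher with siYAP/TAZ#1. That is 3 higher and 5 lower, against 8.2% and 6.92% of all genes. With a minimum log2 change of 0.5 as well, 2 were higher and 3 lower (3.17% and 2.97% of all genes). The median difference of the members was 0.02, against 0.01 for all genes, and 22 members were above 0 and 18 below. In 3 members all siYAP/TAZ#2 libraries were above all siYAP/TAZ#1 libraries and in 3 all were below (9.31% and 8.91% of all genes).

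STAT2 differed most firmly, by 1.06 ± 0.079 (interval 0.90 to 1.21, adjusted p = 7.59e-08). TRIM21 differed by 0.37 ± 0.062 (adjusted p = 0.000441), TRIM25 by -0.26 ± 0.052 (adjusted p = 0.0018), IFIT1 by -0.95 ± 0.21 (adjusted p = 0.00409) and IRF1 by -0.33 ± 0.073 (adjusted p = 0.00418). Leaving out any single library ended none of these 5 calls.

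The 3 weaker calls depended on single libraries. IRF7 differed by 0.51 ± 0.14 (adjusted p = 0.0237), lost without siYAP/TAZ#1 replicate 3 (0.45, adjusted p = 0.09) or siYAP/TAZ#2 replicate 3 (0.50, adjusted p = 0.0575). OASL differed by -0.71 ± 0.22 (adjusted p = 0.0385), lost without siCo replicate 1, 2 or 3 (-0.70 in each), siYAP/TAZ#1 replicate 1, 2 or 4 (-0.71, -0.52 and -0.71) or siYAP/TAZ#2 replicate 1 or 2 (-0.58 and -0.62). IFIT2 differed by -0.55 ± 0.17 (adjusted p = 0.0391), lost without siCo replicate 1 (-0.54), siYAP/TAZ#1 replicate 1, 2 or 4 (-0.43, -0.54 and -0.55) or siYAP/TAZ#2 replicate 2 or 4 (-0.46 and -0.51). MX1 just missed the threshold at -0.55 ± 0.18 (adjusted p = 0.0529) and was called at -0.64 without siYAP/TAZ#1 replicate 3 (adjusted p = 0.0421) and at -0.65 without siYAP/TAZ#2 replicate 4 (adjusted p = 0.0433). MX1 was also called at -0.56 with RLE size factors (adjusted p = 0.0469), without a filter on low counts (0.0297) and in DESeq2 (0.0244). In a fit of only the 2 treated groups, OASL (-0.71, adjusted p = 0.0752) and IFIT2 (-0.55, adjusted p = 0.0706) lost their calls, and IFIT2 also lost its call without the filter (-0.56, adjusted p = 0.0819). After TMM scaling of TPM, IRF7 (0.42, adjusted p = 0.086), IFIT2 (-0.19, adjusted p = 0.08) and TRIM25 (-0.17, adjusted p = 0.122) were not called, while CMPK2 was (-0.25, adjusted p = 0.00575). Without siYAP/TAZ#2 replicate 1, HERC6 (0.38, adjusted p = 0.0122) and PARP14 (0.26, adjusted p = 0.00617) were called higher with siYAP/TAZ#2, in a fit that called 23.1% of all genes between the combinations rather than 15.1%.

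**Figure D2:**
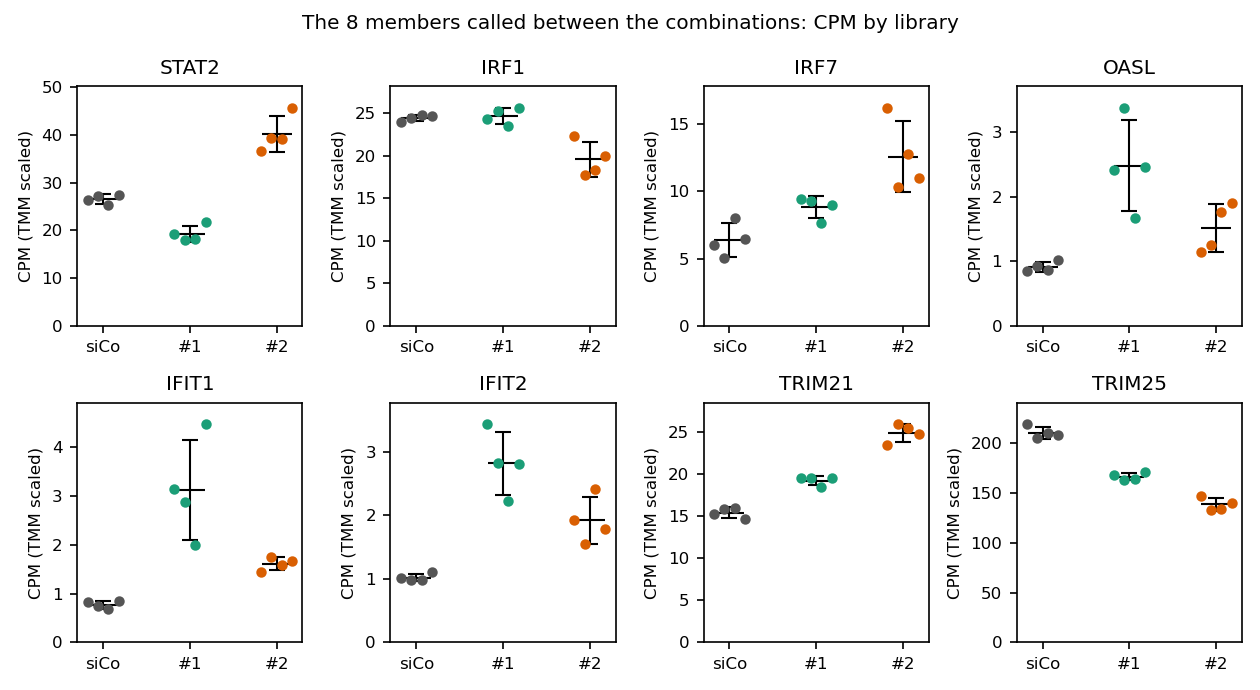
CPM after TMM scaling in each of the 12 libraries for the 8 members called between the combinations, by group on the horizontal axis, with bars for the mean and SD of 4 libraries. STAT2 lies on opposite sides of siCo in the 2 treated groups (19.3 ± 1.69 and 40.2 ± 3.89 CPM around 26.6 ± 0.963), whereas TRIM21 and TRIM25 move in steps from siCo.

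For the other 33 tested members the combinations were not called different, which does not show that they act alike. The interval of the difference lay within -0.5 and 0.5 for 21 of them and reached past one of those bounds for 12: OAS2, DHX58, IFI6, IFI27, IFI44, IFI44L, MX1, CMPK2, HERC6, SAMD9L, TRIM22 and SP110. Because the intervals are somewhat narrow, 21 is the most that could lie within those bounds. In 4 of the 33 the unadjusted p was under 0.05. The tightest intervals were those of OAS3 (-0.07 to 0.13) and IFI35 (-0.08 to 0.16). EIF2AK2, more abundant in CPM than IFI35, had a wider one (-0.24 to 0.18). CMPK2 had the widest gap among the uncalled, -1.20 with an interval of -2.17 to -0.24.

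**Figure D3:**
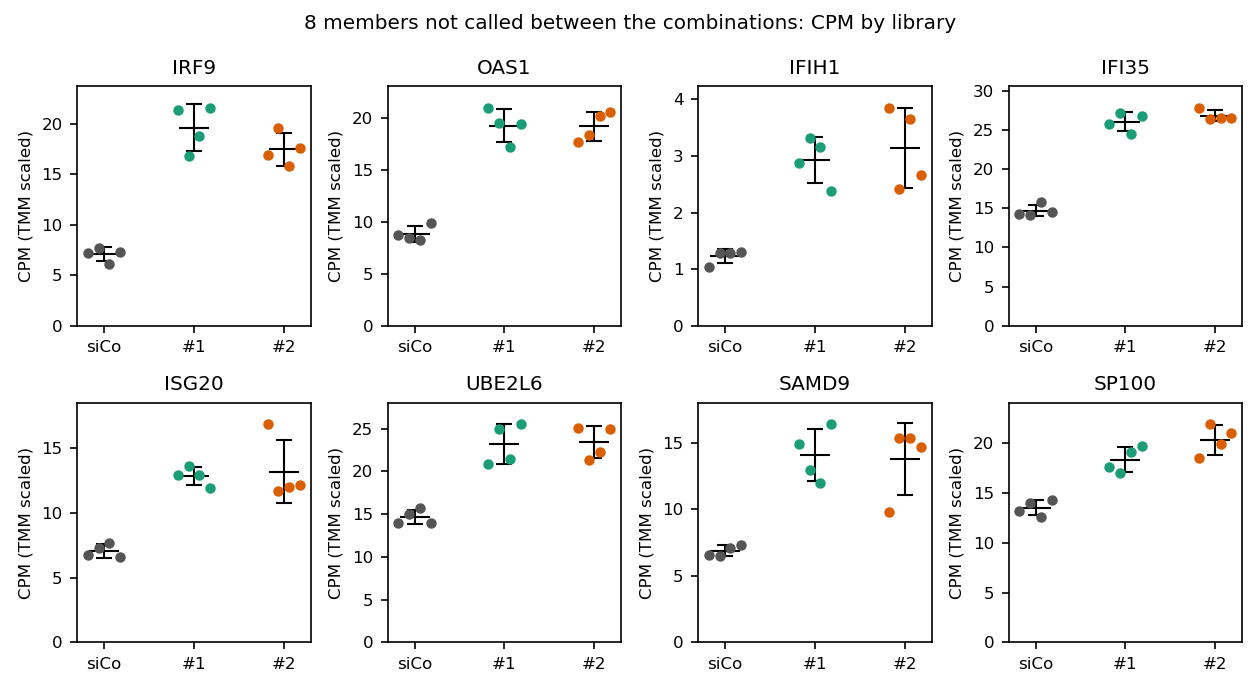
CPM after TMM scaling by library for 8 members that were not called between the combinations, with the mean and SD of 4 libraries. In all 8 the treated libraries lie above every siCo library, and the treated groups overlap. The 8 shown were all called higher in both comparisons with siCo, so they do not stand for every member uncalled between the combinations. OAS3, EIF2AK2 and XAF1, for instance, were called in neither comparison with siCo.

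Per transcript length, on the deposited TPM scale, the list covered a wide range in siCo, with TRIM25 at 44.3, OAS3 at 26.7, ISG20 at 11.7, EIF2AK2 at 10.8, IRF1 at 10.3 and IFI35 at 10.2 TPM at the top. RSAD2 (0.0455) and BST2 (0.0524) were at the bottom. In siCo 18 members were under 1 TPM and 6 at 10 TPM or more. With siYAP/TAZ#1 these counts were 15 and 11, and with siYAP/TAZ#2 14 and 13. Neighbours in the order of mean TPM overlapped in range in 42 of 43 pairs in each group, so that most neighbouring ranks do not differ beyond their spread. In siCo the 1 pair that did not overlap was OAS3 and ISG20.

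**Figure D4:**
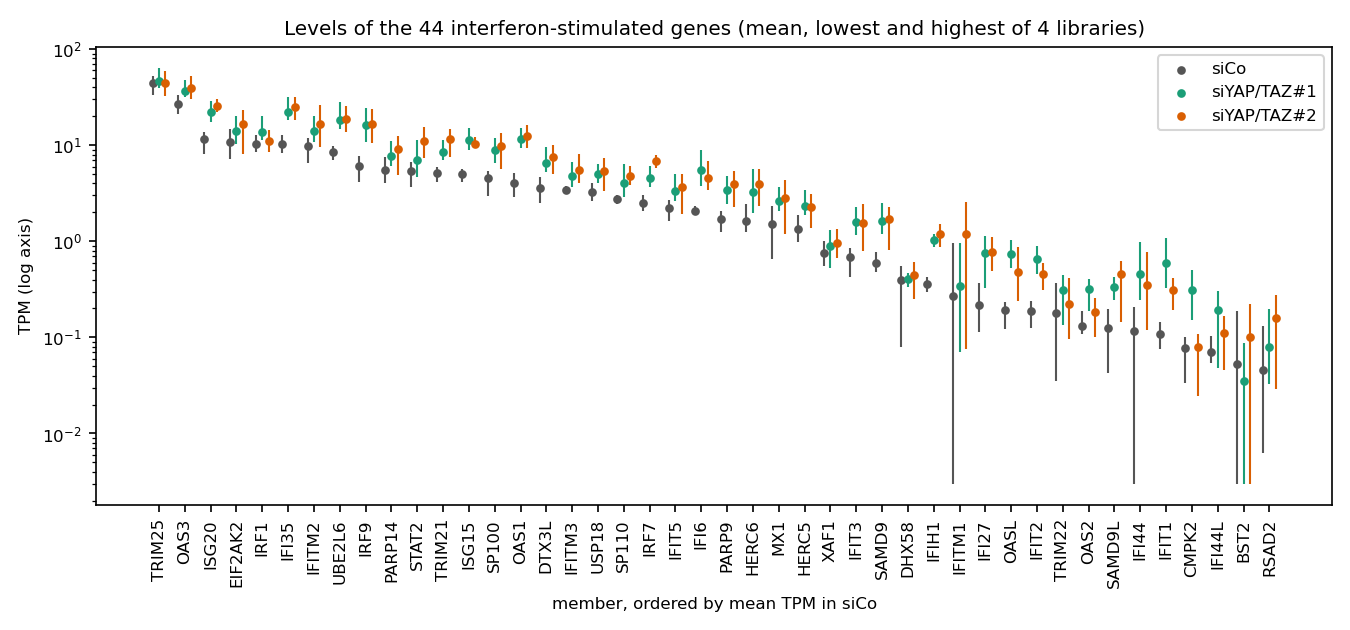
Mean TPM of the 44 members in each group on a log axis, ordered by the siCo mean, with lines from the lowest to the highest of 4 libraries. A lowest value of 0 is drawn at the foot of the axis. The siCo levels run from 44.3 TPM for TRIM25 to 0.0455 TPM for RSAD2.

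TPM as deposited and the counts after TMM scaling did not give the same sizes of change. Relative to siCo, the ratio of means was larger on TPM than on CPM after TMM scaling for 39 of 41 members with siYAP/TAZ#1 and for 38 with siYAP/TAZ#2, with a median difference over the 41 members of 0.39 and 0.46 on the log2 scale. The median of all genes on log2(TPM + 1) was 0.19 and 0.24, and it was 0.01 with both combinations after TMM scaling of TPM. STAT2 stood at 5.42 ± 1.3, 6.94 ± 2.93 and 11.1 ± 3.38 TPM in siCo, siYAP/TAZ#1 and siYAP/TAZ#2, so that siYAP/TAZ#1 was not below siCo there. With limma on log2(TPM + 1), 15 members were higher and 0 lower with siYAP/TAZ#1, 19 and 0 with siYAP/TAZ#2, and 0 were called between the combinations. On that scale 8.04% and 16.3% of all genes were higher, 0.723% and 0.917% were lower, and 0.542% were called between the combinations. The calls against siCo of IRF7, IFI44, HERC6 and SAMD9L with siYAP/TAZ#1, of OASL, IFIT1, IFITM2, PARP14 and SP110 with siYAP/TAZ#2, and of MX1 and USP18 with both, were lost on log2(TPM + 1) as deposited and after TMM scaling. The same held for HERC5 with siYAP/TAZ#2. After TMM scaling of TPM, 7.98% of all genes were called between the combinations. With library size alone as the scale, 31 members were higher and 2 lower with siYAP/TAZ#1, and 31 and 1 with siYAP/TAZ#2. On that scale 27.2% and 30.3% of all genes were called higher.

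**Figure D5:**
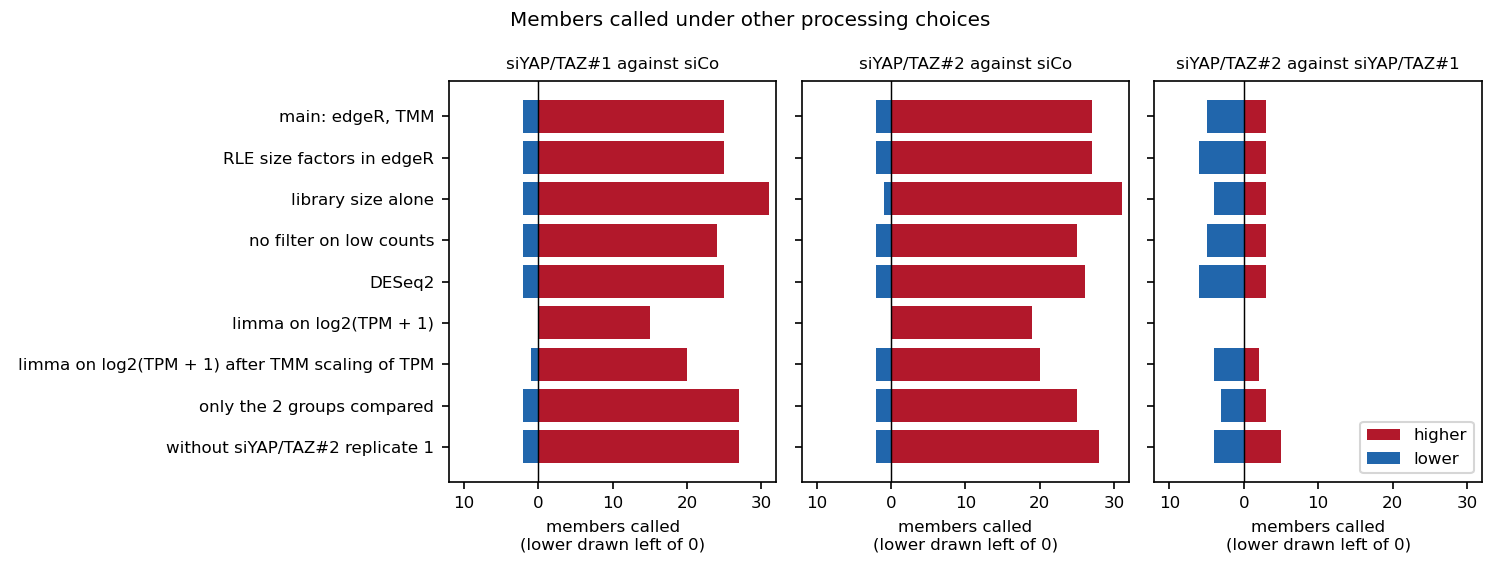
Number of members called higher (red, right of 0) and lower (blue, left of 0) in each comparison, under the main processing and 8 other choices. The counts against siCo stay between 15 and 31 higher, and log2(TPM + 1) without further scaling gives no call between the combinations.

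The interferon genes themselves were almost silent. Of 21 ligand genes, 8, including IFNB1 and IFNG, had no count in any of the 12 libraries, which allows up to 3 counts or 0.075 to 0.112 CPM in a library. Those limits cover counting error only. Without IFNE, the ligands summed to 51 estimated counts over 12 libraries, with at most 7 in one. IFNE, an epithelial type I interferon, was the only ligand tested, at 1.34 ± 0.393, 1.52 ± 0.181 and 1.32 ± 0.486 CPM (siCo first, then each combination), with changes of 0.19 and -0.02 that were not called.

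Of 9 receptor and JAK genes, 2 rose and 2 fell with each combination, and 0 were called between the combinations. The 4 of 9 called compare with 34.9% and 38.2% of all genes, and the 0 with 15.1%. IFNLR1, the specific chain of the interferon lambda receptor, went from 4.36 ± 0.465 to 8.13 ± 0.577 and 7.52 ± 1.13 CPM and rose by 0.90 ± 0.12 and 0.79 ± 0.12. Its partner chain IL10RB rose by 0.39 ± 0.11 and 0.38 ± 0.11. JAK1, the kinase shared by the interferon receptors, fell by 0.36 ± 0.051 and 0.27 ± 0.051, and IFNGR2, a chain of the type II receptor, fell by 0.25 ± 0.062 and 0.38 ± 0.062. The falls of IFNGR2 with both combinations and of JAK1 with siYAP/TAZ#2 did not hold on log2(TPM + 1).

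Among 20 genes of nucleic acid sensing upstream of interferon, 17 were tested. With siYAP/TAZ#1, 4 rose and 1 fell, with siYAP/TAZ#2, 7 rose and 1 fell, and between the combinations 1 was higher and 1 lower. These are 29.4%, 47.1% and 11.8% of the genes tested, against 34.9%, 38.2% and 15.1% of all genes. IRF5 rose by 0.71 ± 0.067 and 0.83 ± 0.067, and MYD88, the adaptor of most Toll-like receptors, by 0.79 ± 0.074 and 0.82 ± 0.074. CGAS, the cytosolic DNA sensor, fell by 0.54 ± 0.083 with siYAP/TAZ#2 and was lower than with siYAP/TAZ#1, by -0.42 ± 0.083 (adjusted p = 0.00186). TANK, a scaffold of the TBK1 kinase, rose by 0.59 ± 0.11 with siYAP/TAZ#2 and was higher than with siYAP/TAZ#1 by 0.34 ± 0.11 (adjusted p = 0.0378). The siRNA-sensing receptors of immune cells, TLR7 and TLR8, had summed counts of at most 21.7 and 8 in a group and were not tested.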

How the data were processed

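The 44 members, their role groups and the pathway lists were chosen with earlier results of these data known. Each of the 12 libraries has a table of estimated counts, which the authors deposited without scaling, and a table of TPM, which the authors deposited with nearly equal sums in all libraries. Per the submitters' processing notes, Trim Galore 0.6.4, kallisto 0.4.6 and GRCh38.p13 were used. The sources used here give neither strandedness nor how transcripts were summed to genes. Exons of 19 of the 44 members overlap those of another gene, for 15 of them on the opposite strand, and reads there may be shared. Beside those named above, these include IRF1, OAS1, EIF2AK2, MX1, ISG15, SP100 and SP110. Identifiers were matched to symbols through a name table (60357 of 60617), and positions are those of GENCODE 29.

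Rounded estimated counts entered edgeR 4.0.16 (R 4.3.3), with TMM scaling, filterByExpr, group as the only term, all 12 libraries, the quasi-likelihood F test and Benjamini-Hochberg adjustment over 21581 genes. All tests were two-sided. The biological coefficient of variation was 0.105. The p-values measure the spread between these libraries, whose independence rests on the series' word. Correlations of log2(CPM + 1) within groups were 0.989 to 0.997, and no pair of libraries agreed within sampling noise.

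Values in each library are given for STAT2, IRF1, IRF7, IRF9 and, in each role group, the members with the smallest adjusted p between the combinations and against siCo. IFIT2, IFIH1 and ISG15 were added after their values were seen. Pathway genes were named among those called, up to 4 in a list by adjusted p, and further ones, with TLR7 and TLR8, after their values were seen. Alternatives were RLE factors, library size alone, no filter, DESeq2 1.42.0, limma 3.58.1 on log2(TPM + 1), 2 groups only, a replicate block, stricter thresholds and each library left out. TMM scaling of TPM, and the alternatives for pathway lists, were chosen after seeing the data.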

Additional observations from a re-analysis of the deposited data

Results flagged for a closer look

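In 11 of 123 sets of 4 values (a member in a group), 1 library stood apart from the other 3, where chance gives about 1 in 20, or 6.2. Replicate 1 of siYAP/TAZ#2 accounted for 6 of them. It was high for IFI35 (27.8 CPM against 26.4 to 26.5 in the other libraries of its group), ISG15 (7.58 against 4.68 to 4.89) and ISG20 (16.8 against 11.7 to 12.1). It was low for IFIT5 (13.3 against 18.2 to 18.8), PARP9 (14 against 17.2 to 17.8) and SAMD9 (9.79 against 14.7 to 15.4). In siYAP/TAZ#1, replicate 3 was low for HERC5 (8.9 CPM against 9.98 to 10.1) and TRIM21 (18.4 against 19.5), replicate 1 was high for IFI44 (0.951 against 0.365 to 0.423) and replicate 4 was high for OAS2 (0.956 against 0.563 to 0.625). In siCo, replicate 1 was low for IFIH1 (1.04 CPM against 1.28 to 1.31).

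The 8 members called between the combinations are listed because the effects of the combinations differed in a direct test (siYAP/TAZ#2 minus siYAP/TAZ#1, log2). The values were 1.06 for STAT2, 0.51 for IRF7 and 0.37 for TRIM21 on the higher side. On the lower side they were -0.95 for IFIT1, -0.71 for OASL, -0.55 for IFIT2, -0.33 for IRF1 and -0.26 for TRIM25. The cause of these differences was not tested.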

How the results depend on the processing

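Of 2458 pairs of a member's change and an alternative, 2313 kept direction and call, 112 lost the call, 30 gained it and 3 reversed. Sign changes of values never called were not counted as reversals. The reversals of members came with log2(TPM + 1): 0.27 for STAT2 and 0.06 for TRIM25 (siYAP/TAZ#1) and 0.08 for IRF1 (siYAP/TAZ#2). On that scale pathway genes also reversed. With siYAP/TAZ#1 these were IFNGR2 0.04, TICAM1 0.09 and PIAS1 0.16. With siYAP/TAZ#2 they were IFNGR2 0.02, JAK1 0.12, PIAS2 0.01, PIAS3 0.03, PTPN2 0.20 and PTPN11 0.16. MAVS reversed to 0.17 with library size alone (siYAP/TAZ#1). The causes were not tested.

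Counts of members moved by over 1.5 times as follows. On log2(TPM + 1), 15 were called with siYAP/TAZ#1 (15 higher, 0 lower), 19 with siYAP/TAZ#2 (0 lower) and 0 between the combinations (0 higher, 0 lower). Of all genes, 8.77%, 17.2% and 0.542% were called on that scale in the same comparisons. TMM-scaled TPM gave 1 lower with siYAP/TAZ#1, and library size alone gave 1 lower with siYAP/TAZ#2. In those comparisons the settings called 13.4% and 9.44% of all genes lower. A minimum log2 change of 0.5 gave 0 and 1 lower, and 5 called between the combinations (3 lower). An adjusted p under 0.01 also gave 5 (3 lower). Of all genes, the minimum change called 6.68% and 7.67% lower, and 6.14% between the combinations (2.97% lower). The stricter adjusted p called 9.6% of all genes there (4.67% lower). The fit of 2 groups gave 3 lower between the combinations, where it called 12.8% of all genes (6.05% lower). Leaving out 1 library gave 2 to 5 higher and 3 to 6 lower there (6 to 9 in all), 22 to 27 higher for siYAP/TAZ#1, and 23 to 28 for siYAP/TAZ#2. Of all genes, those fits called 11.6 to 23.1% between the combinations. They called 14.1 to 19.1% higher for siYAP/TAZ#1 and 16.8 to 20.8% for siYAP/TAZ#2.

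To look for pairing, log2(CPM + 1) of each gene above a minimum mean level was taken as its distance from its group mean. Correlations of these distances between same-numbered libraries ran from -0.514 to 0.633, with replicate 4 positive in all group pairs (0.558 to 0.633). Not every pair was over 0.1, and among siYAP/TAZ#1 libraries siCo replicate 3 correlated best with replicate 2 (0.449), so the numbers were not taken to pair libraries. With the replicate block, 3 members were lower between the combinations, since OASL (-0.69, adjusted p = 0.0522) and IFIT2 (-0.55, adjusted p = 0.0614) lost their calls. The counts were then 24 higher and 2 lower for siYAP/TAZ#1, and 26 and 2 for siYAP/TAZ#2. Of all genes, that fit called 16.5% higher and 18.8% lower for siYAP/TAZ#1, and 18.7% and 19.6% for siYAP/TAZ#2. Between the combinations it called 15.1% of all genes (7.04% lower).

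In the pathway lists (siYAP/TAZ#1, siYAP/TAZ#2, between), log2(TPM + 1) gave 0 and 2 receptor and JAK genes, 3, 5 and 0 sensing genes, 3, 3 and 0 feedback genes, and 0 guanylate binding protein or chemokine genes between. A minimum change of 0.5 gave 1 and 1 receptor genes, 0 sensing genes between, and 5, 4 and 0 feedback genes. Library size alone gave 1 receptor gene between, 9 sensing genes with siYAP/TAZ#1 and 1 between, 5 feedback genes with siYAP/TAZ#2 and 4 of the last list with siYAP/TAZ#2. An adjusted p under 0.01 gave 5 sensing genes with siYAP/TAZ#2 and 1 between, 3 feedback genes between and 0 of the last list between. TMM-scaled TPM and the fit of 2 groups each gave 1 sensing and 3 feedback genes between. No filter gave 2 of the last list with siYAP/TAZ#2, and DESeq2 0 between. Over left-out libraries the ranges were 0 to 2 receptor genes between, 4 to 8 and 7 to 11 and 1 to 3 sensing genes, 3 to 7 feedback genes between, and 1 to 2 and 0 to 2 of the last list with siYAP/TAZ#2 and between. Of all genes, the shares called (same order) were 8.77%, 17.2% and 0.542% on log2(TPM + 1). They were 16.9%, 19.7% and 6.14% with the minimum change, 36.1%, 39.7% and 13.5% with library size alone, and 25.1%, 28.1% and 9.6% under 0.01. TMM-scaled TPM, 2 groups and DESeq2 gave 7.98%, 12.8% and 21.6% between, and no filter 18.3% with siYAP/TAZ#2. Over left-out libraries they ran 30 to 41.4%, 33.6 to 42.9% and 11.6 to 23.1%. Members under about 1 CPM were limited by depth.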

Other observations

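Of 12 feedback regulators of the JAK-STAT pathway, 2 rose and 6 fell with each combination, against 34.9% and 38.2% of all genes called in either direction. SOCS3, an inhibitor of cytokine receptors that signal through gp130, fell from 120 ± 9.67 CPM in siCo to 42.7 ± 4.68 with siYAP/TAZ#1 and 41 ± 5.6 with siYAP/TAZ#2 (-1.49 ± 0.098 and -1.55 ± 0.098). SOCS1, the main inhibitor of interferon receptor kinases, was low and rose from 1.16 ± 0.355 to 2.11 ± 0.268 and 3.07 ± 0.538 CPM. The phosphatase gene PTPN6 (SHP-1) rose by 0.83 ± 0.091 and 1.17 ± 0.091, and PTPN11 (SHP-2) fell by 0.60 ± 0.067 and 0.29 ± 0.067. Between the combinations, SOCS2 (0.44), PTPN6 (0.33) and PTPN11 (0.31) were higher with siYAP/TAZ#2 and PIAS3 (-0.36) and PIAS2 (-0.34) lower, at adjusted p of 0.0007 to 0.0362. That is 3 higher and 2 lower of the 12 (41.7%), against 15.1% of all genes. The number called there ran from 3 to 7 when single libraries were left out. It was 0 with a minimum log2 change of 0.5 and on log2(TPM + 1).

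Of 12 guanylate binding protein and interferon-inducible chemokine genes, 8 were tested. With siYAP/TAZ#1 2 were called higher, with siYAP/TAZ#2 1 was called higher, and between the combinations 1 was called lower. These are 25%, 12.5% and 12.5% of the genes tested, against 34.9%, 38.2% and 15.1% of all genes. GBP2, a large GTPase of cell-autonomous defence, rose from 1.18 ± 0.327 CPM in siCo to 2.66 ± 0.336 and 3.69 ± 0.537 CPM. The chemokine CCL5 stood at 0.311 ± 0.0954, 0.875 ± 0.422 and 0.349 ± 0.0305 CPM. CCL5 was higher with siYAP/TAZ#1 than in siCo (1.48 ± 0.37, adjusted p = 0.00474) and lower with siYAP/TAZ#2 than with siYAP/TAZ#1 (-1.31 ± 0.36, adjusted p = 0.0203).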
